A study of Homo sapiens with 12 samples.

Results

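Lysosomal hydrolases and membrane proteins were followed through 39 genes: 11 proteases, 11 glycosidases, 4 sulfatases, 7 enzymes or helper proteins of lipid breakdown and 6 proteins of the lysosomal membrane. They were taken by gene symbol from a table of 20263 genes, and all 39 were found there. The table held messenger RNA levels in 12 libraries of U-87 MG, an established human glioblastoma line, kept at 1% oxygen for 72 h according to the series record, while the study's methods give a shorter exposure for messenger RNA work. The 4 groups had 3 libraries each: cells with the empty vector (vector), cells with HIF1α knocked out (HIF1α-ko), cells with HIF2α knocked out (HIF2α-ko) and cells with both knocked out (HIF1α/2α-ko, the dual knockout). All 12 libraries were hypoxic, so no value here compares hypoxia with normal oxygen. Whether each knockout was 1 clone or a pool, and whether the 3 libraries of a group came from separate cultures, was not given in the sources used here, so the p-values measure the spread between these libraries.

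The lysosome is the acid compartment in which a cell breaks down proteins, sugar chains and lipids that arrive by endocytosis or autophagy. Its hydrolases are made as precursors, tagged with mannose 6-phosphate and carried to the lysosome by sorting receptors. The V-ATPase pumps protons to keep the lumen acid, and the membrane is lined by heavily glycosylated proteins such as LAMP1 and LAMP2. Transcription factors of the MiT/TFE family (TFEB, TFE3 and MITF) bind a palindromic motif in the promoters of many lysosomal genes, and the kinase mTORC1 on the lysosomal surface holds them in the cytoplasm while nutrients are plentiful. HIF1α and HIF2α are the oxygen-regulated subunits of the hypoxia-inducible factors, and they bind a short core sequence that partly overlaps that motif.

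Promoter sequences are shown for the members that hold the MiT/TFE motif, because its centre and the HIF core share letters. RefSeq promoters (250 bases before to 50 bases after the gene start, GRCh38.p14) were matched for 28 of the 39 members among 27305 genes. These genes were not limited to those measured or tested here, so the shares of all promoters are those of a wider set. Both strands were searched. GTCACGTG was found in 7 of the 28 members (25.0%) and in 2.93% of all promoters. The motif read on both strands at once, as a palindrome of 10 letters, was found in 2 members, GAA and MCOLN1, and in 0.421% of all promoters. CACGTG, the centre of the motif, was found in 10 members (35.7%) against 8.77% of all promoters. ACGTG, a form of the HIF core that is also part of CACGTG, was found in 11 members (39.3%) against 24.9%. Every promoter with CACGTG is counted in it. Other forms of the core, such as that with the GCGT mutated in the study's ABCG2 promoter, were not searched. The match nearest to the gene start is printed for each of the 7 members below, 5′ to 3′ on the strand of the gene, with GTCACGTG or its reverse complement in capitals.
CTSD, chr11:1763956-1763985, minus strand: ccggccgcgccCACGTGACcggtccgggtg
CTSA, chr20:45891299-45891328, plus strand: gcgccggagttCACGTGACtcgtacacatg
GAA, chr17:80101539-80101568, plus strand: ctcccgccggtCACGTGACccgcctctgcg
MCOLN1, chr19:7522599-7522628, plus strand: ggctaccgggtCACGTGACcgaggcacaga
LAMP1, chr13:113297227-113297256, plus strand: gcggcgcagctCACGTGACaagcgctgccg
CLN3, chr16:28492059-28492088, minus strand: acgcgggtgctGTCACGTGatccgacaaac
ARSB, chr5:78986100-78986129, minus strand: aattcaataagCACGTGACtaaaggatttt
These windows describe letters in the reference genome. The 7 genes did not move as one: CTSA, CTSD and MCOLN1 rose in HIF1α-ko against vector, GAA fell in HIF1α/2α-ko against vector, and LAMP1, CLN3 and ARSB passed the threshold in neither of these comparisons.

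The targeted genes were checked first. HIF1A was at 112, 110.0 and 151 TPM in vector, while HIF1α-ko gave 57.3, 49.5 and 38.6, HIF2α-ko gave 108, 76.1 and 76.6 and HIF1α/2α-ko gave 89.2, 67.8 and 69.4. Its log2 difference from vector was -1.34 ± 0.20 (SE) in HIF1α-ko (limma adjusted p = 0.000851), -0.52 ± 0.20 in HIF2α-ko (0.112) and -0.71 ± 0.20 with both lost (0.0104). EPAS1, which encodes HIF2α, was at 286, 333 and 346 TPM in vector, while HIF1α-ko gave 251, 288 and 255, HIF2α-ko gave 87.6, 118 and 116 and HIF1α/2α-ko gave 101, 119.5 and 129.9, with log2 differences from vector of -0.28, -1.59 and -1.45 (limma adjusted p = 0.168, 0.000375 and 1.3e-05). Each message was lower than in vector where its gene was named as knocked out, but it was not absent. The dual knockout held more HIF1A message than HIF1α-ko (limma adjusted p = 0.0287, 0.0787 after median ratio scaling, 0.0626 after quantile normalization, and up to 0.121 without dual knockout replicate 1 or 3 or HIF1α-ko replicate 2 or 3). Its HIF1A libraries overlapped with those of HIF2α-ko (log2 difference -0.19), and limma called no difference there. The check of HIF1A in the dual knockout therefore holds against vector and not against HIF2α-ko. TPM does not separate edited from unedited transcripts.

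In every group replicate 1 stood apart from replicates 2 and 3. Over all 20263 genes, 3382 of them at 0 in every library, its Pearson r with them on the log2(TPM + 1) scale was 0.984 and 0.983 in vector (0.994 between the latter), 0.987 and 0.988 in HIF1α/2α-ko (0.996), 0.991 and 0.991 in HIF1α-ko (0.996) and 0.992 and 0.992 in HIF2α-ko (0.996). In vector replicate 1, 10 of the 37 tested members (CTSA, CTSC, CTSK, NAGLU, GLA, GLB1, FUCA1, ARSB, SMPD1 and LIPA) were at least 1.5 times as high as the mean of the other vector libraries, against 20.4% of all tested genes. Counts that move without single libraries are given beside them. Of 12 markers of macrophages and microglia, 11 were under 1 TPM in each library of vector, HIF2α-ko and HIF1α/2α-ko, and 10 in HIF1α-ko. TYROBP, C1QA and C1QB were at 0 in every library, and the 12 genes summed to 3.55 to 9.43 TPM. The highest value of a single marker was 7.34 TPM, in HIF2α-ko. Only 1 of the 12 was tested, and limma called it lower in HIF1α/2α-ko than in HIF2α-ko (log2 difference -0.67). VIM (5635 to 14690 TPM), CD44 and TNC were high and GFAP, S100B and SOX2 were under 1 TPM in every library. The 10 glial and mesenchymal markers summed to 14827 to 17689 TPM in vector, 11842 to 13596 in HIF1α-ko, 8957 to 10956 in HIF2α-ko and 7416 to 10971 in HIF1α/2α-ko, and the part of this in the lysosomal values was not tested. VIM was a large part of these sums, so they do not describe the other markers. In HIF1α/2α-ko against vector, 1 of the 7 markers tested was called higher and 4 lower (log2 differences from -1.63 to 2.31). Among all tested genes 31.8% were higher and 14.8% lower there.

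The 39 members summed to 17384 to 19297 TPM in vector, 23362 to 24475 in HIF1α-ko, 17738 to 18197 in HIF2α-ko and 19422 to 19840 in HIF1α/2α-ko. TPM gives each gene's share of a library after correction for gene length, so these sums are parts of a whole. PSAP, the precursor of the saposins that help enzymes reach sphingolipids, was the highest member at 4943 to 6799 TPM. CTSB and CD63 followed, with CTSB above CD63 in vector and HIF1α-ko and below it in HIF2α-ko and HIF1α/2α-ko. CTSH and CTSZ, both cysteine cathepsins, stayed at or below 0.18 and 0.20 TPM in every library and were not tested, which left 37 members among 11731 tested genes (those reaching a TPM of 1 in 3 or more libraries). As these are bulk samples, fewer cells of a type and less RNA per cell cannot be told apart.

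**Figure D1:**
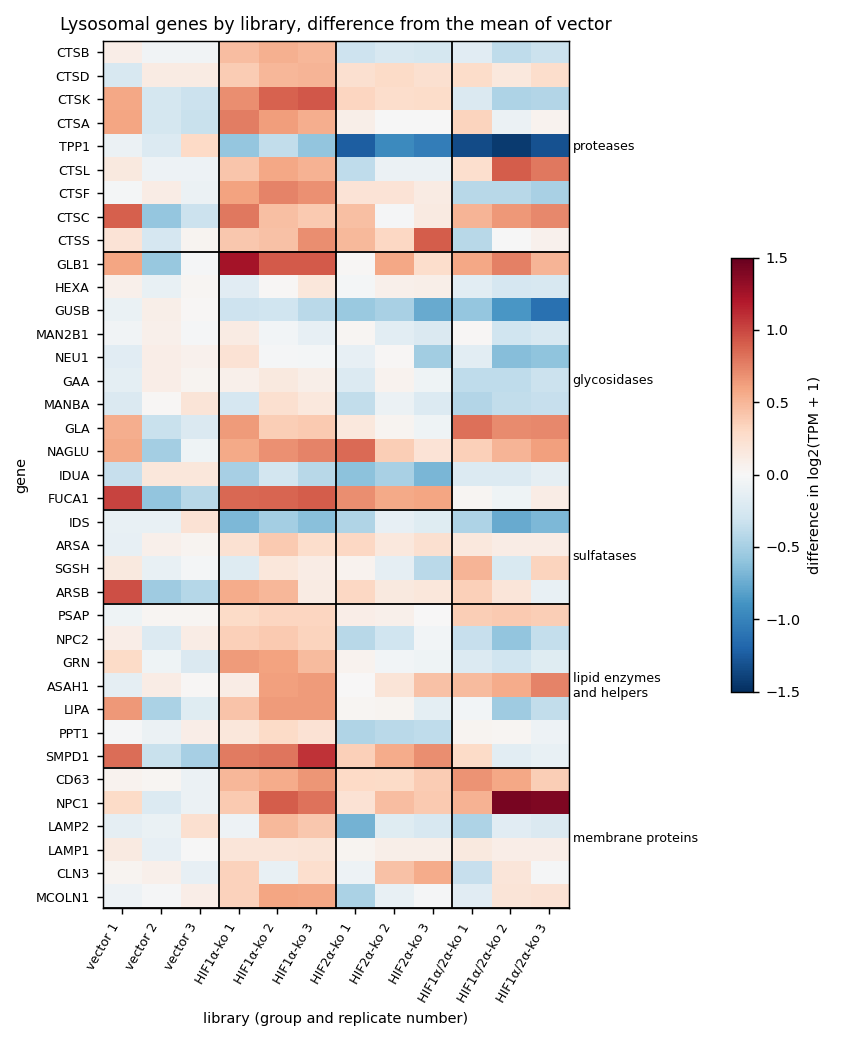
Colour gives each library's difference from the vector mean in log2(TPM + 1) for the 37 tested lysosomal genes (rows, grouped by role) in the 12 libraries (columns). The HIF1α-ko columns are mostly red, TPP1 and GUSB are blue in the 3 knockout groups, CTSK, CTSF and CTSB turn from red in HIF1α-ko to blue in HIF1α/2α-ko, and vector replicate 1 differs from vector replicates 2 and 3 in FUCA1, ARSB and SMPD1.

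In HIF1α-ko more lysosomal genes were higher than lower on the deposited scale, and equally many after median ratio scaling. In HIF1α-ko against vector, 13 of the 37 members were higher (SMPD1, GLB1, CTSB, NPC1, CTSK, CTSA, CTSD, PSAP, CTSF, MCOLN1, GRN, CTSL and CD63) and 2 were lower (IDS and TPP1) at an adjusted p under 0.05. Of all tested genes, 17.3% were higher and 8.77% lower. The members' median log2 difference was 0.46, that of all tested genes 0.18, and 26 of the 37 members were above the latter. The libraries of the groups did not overlap for 20 members, against 39.6% of all genes. Scaling to the median ratio, which set the median of all genes to 0.01, left 3 members higher (GLB1, CTSK and CTSF) and 3 lower (IDS, TPP1 and IDUA), against 10.9% and 13.0% of all genes, with 25 members still above the all-gene median. Quantile normalization gave 11 higher and 3 lower, against 13.5% and 12.8%.

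Single libraries mattered to these counts. The 13 became 21 without vector replicate 1, 8 without vector replicate 2 or 3, and 7 without HIF1α-ko replicate 2 or 3, and the 2 that fell became 1 without vector replicate 3 or HIF1α-ko replicate 3. The shares of all genes moved too. Those higher were 24.1% without vector replicate 1, 9.68% and 9.11% without vector replicate 2 or 3, and 8.82% and 8.61% without HIF1α-ko replicate 2 or 3. Those lower were 4.94% and 4.62% without vector replicate 3 or HIF1α-ko replicate 3. CD63, CTSB, CTSD, CTSF, CTSK, GLB1, GRN and IDS kept their call whichever library was left out. CTSA and SMPD1 lost it without any 1 HIF1α-ko library and without vector replicate 2 or 3 (adjusted p up to 0.139 and 0.144). CTSL lost it without vector replicate 2 or 3, HIF1α-ko replicate 2 or 3 or HIF2α-ko replicate 2 (up to 0.117), and NPC1 without these or HIF2α-ko replicate 3 (up to 0.139). PSAP lost it without HIF1α-ko replicate 2 or 3 (up to 0.064), TPP1 without vector replicate 3 or HIF1α-ko replicate 3 (up to 0.0712), and MCOLN1 without any 1 vector library or replicate 2 or 3 of any knockout group (up to 0.132).

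With both factors lost, the balance shifted downwards. In HIF1α/2α-ko against vector, 6 members were higher (GLA, NPC1, PSAP, CTSL, ASAH1 and CD63) and 8 were lower (IDS, GAA, CTSB, NEU1, NPC2, TPP1, CTSF and GUSB). Of all tested genes, 31.8% were higher and 14.8% lower (46.7% in either direction), so the share of members higher was below that of all genes. The members' median log2 difference was 0.00 against 0.21 for all genes, and 10 members were above the latter. The libraries of the groups did not overlap for 18 members, against 50.5% of all genes. After median ratio scaling 2 members were higher (NPC1 and CTSL) and 13 lower (the 8 with CTSK, GRN, HEXA, LAMP2 and MANBA), against 24.3% and 22.2% of all genes, and after quantile normalization 6 were higher and 12 lower, against 24.1% and 24.3%. The 6 became 12 without vector replicate 1, and the 8 became 5 without vector replicate 3 and 4 without HIF1α/2α-ko replicate 2.

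Set against HIF1α-ko, the dual knockout had 13 lower members and 0 higher. The lower ones were GAA, SMPD1, CTSB, LIPA, CTSS, NEU1, CTSK, NPC2, TPP1, CTSF, GRN, LAMP2 and GUSB, and limma at an unadjusted p under 0.05 gave 17 lower and 0 higher. Of all tested genes, 10.6% were lower and 17.7% higher, and the members' median log2 difference was -0.25 against 0.07. The libraries of the groups did not overlap for 25 members, against 44.3% of all genes. Median ratio scaling gave 14 lower and 0 higher, with GUSB and NEU1 no longer called (adjusted p = 0.0517 and 0.0877), against 12% and 17.1% of all genes, and quantile normalization 18 lower and 1 higher (PSAP), against 15.6% and 15.5%. With the replicate number as a block among the 3 knockout groups, 20 members were lower (the 13 with CTSA, CTSD, FUCA1, GLB1, MANBA, MCOLN1 and PPT1) and 2 were higher (GLA and NPC1), against 19.5% and 29% of all genes. CTSB, CTSF, CTSK, GAA, GRN, NPC2 and TPP1 kept their call whichever library was left out, and the count was 8 without HIF1α-ko replicate 2 or 3, 7 without HIF1α/2α-ko replicate 2, and 1 member was higher without HIF1α/2α-ko replicate 1. The matching shares of all genes were 7.22%, 7.94% and 7.74% lower, and 20.9% higher.

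Set against HIF2α-ko, 5 members were higher in the dual knockout (GLA, NPC1, PSAP, CTSL and PPT1) and 4 lower (IDS, CTSS, CTSK and CTSF). Among all genes 33.5% were higher and 12.9% lower (46.4% in either direction). The libraries of the groups did not overlap for 20 members, against 56.7% of all genes. The split depended on scaling: 2 higher (NPC1 and CTSL) and 14 lower after median ratio scaling, against 23.4% and 21.0% of all genes, and 3 higher and 12 lower after quantile normalization, against 23.3% and 22.3%. The replicate block added ASAH1, CTSC, IDUA and MCOLN1 to the higher and FUCA1, GAA, GRN, HEXA, SMPD1 and TPP1 to the lower members, which gave 9 higher and 10 lower, against 43.6% and 19.0%. Without vector replicate 1, which enters this comparison through the shared spread, 7 were lower, and without HIF2α-ko replicate 3 or HIF1α/2α-ko replicate 2, 2 were lower. The matching shares of all genes lower were 14.9%, 9.91% and 9.92%.

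Loss of HIF2α alone left few members past the threshold, and the same held for all tested genes. In HIF2α-ko against vector, limma called 0 members higher and 4 lower (TPP1, PPT1, GUSB and IDUA), while at an unadjusted p under 0.05 it gave 3 and 5. Of all tested genes, 5.07% were higher and 5.89% lower, and the members' median log2 difference was 0.05 against -0.04. The members called, all of them lower, were 10.8% of those tested. That was near the share of all genes called in either direction. After median ratio scaling 1 member was higher (CTSS) and 1 lower (TPP1), against 6.42% and 4.94% of all genes, and after quantile normalization 2 were higher (CTSS and CD63) and 3 lower, against 6.71% and 5.96%. Without vector replicate 1, 8 members were higher: NAGLU, SMPD1, CTSS, CTSK, FUCA1, ARSB, CTSC and CD63. Of these, 6 were among the members that stood at least 1.5 times higher in that library. Without it, 11.1% of all tested genes were higher. Without HIF1α/2α-ko replicate 1, 1 member was higher. TPP1 kept its call whichever library was left out, while the count of 4 became 2 without HIF2α-ko replicate 1 or 2 or vector replicate 2, and 1 when replicate 3 of either group was left out.

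**Figure D2:**
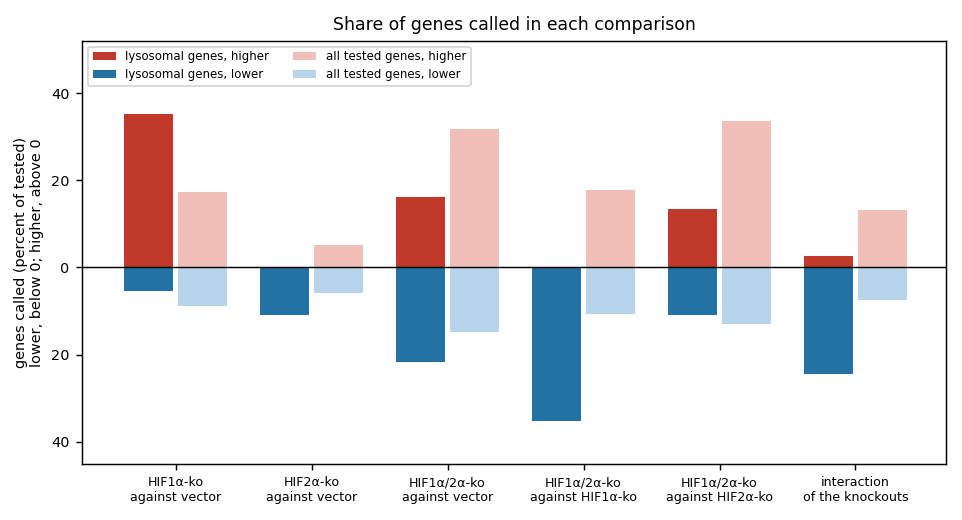
Bars give the percent of tested genes past an adjusted p of 0.05 in each comparison, higher above 0 and lower below 0, for the 37 lysosomal genes (dark) and all 11731 tested genes (pale). In HIF1α-ko against vector the 13 higher members are a larger share than the 17.3% of all genes, and in HIF1α/2α-ko against HIF1α-ko 13 members are lower and 0 are higher.

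Proteases changed in both directions. Of the 9 tested, 6 rose and 1 fell in HIF1α-ko against vector, where 17.3% of all tested genes were higher and 8.77% lower. In HIF1α/2α-ko 1 rose and 3 fell, where 31.8% of all were higher and 14.8% lower. The 1 that rose there became 3 without vector replicate 1, and the 1 that fell in HIF1α-ko became 0 without vector replicate 3 or HIF1α-ko replicate 3. CTSK, a collagen-degrading cysteine cathepsin best known from osteoclasts, lies at chr1:150796208-150808323, minus strand, beside CTSS at chr1:150730196-150765957, minus strand (GRCh38, GENCODE 29). CTSK was at 1349, 748 and 722 TPM in vector, while HIF1α-ko gave 1462, 1656 and 1721, HIF2α-ko gave 1126, 1079.8 and 1091 and HIF1α/2α-ko gave 776, 652 and 662. The HIF1α-ko libraries were the highest of all, the HIF1α/2α-ko libraries overlapped with vector replicates 2 and 3, and vector replicate 1 lay between the single knockouts. The log2 difference was 0.84 ± 0.19 (SE) in HIF1α-ko against vector (limma adjusted p = 0.00924), and -1.21 ± 0.19 in HIF1α/2α-ko against HIF1α-ko (0.000841), while HIF1α/2α-ko against vector gave -0.37 ± 0.19 (0.136). CTSK was also lower in the dual knockout than in HIF2α-ko (-0.66, limma adjusted p = 0.0148, and 0.0514 without HIF1α/2α-ko replicate 2).

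CTSF, another papain-type cathepsin (chr11:66563463-66568841, minus strand), was at 54.2, 59.8 and 51.9 TPM in vector, while HIF1α-ko gave 84.3, 92.9 and 89.4, HIF2α-ko gave 64.0, 63.7 and 60.4 and HIF1α/2α-ko gave 41.0, 41.2 and 39.0. The 4 groups did not overlap in any pair, in the order HIF1α-ko, HIF2α-ko, vector, HIF1α/2α-ko, though HIF2α-ko against vector did not pass the threshold (0.18 ± 0.11, adjusted p = 0.312). It rose by 0.68 ± 0.11 in HIF1α-ko against vector (limma adjusted p = 0.0014). It fell in HIF1α/2α-ko, with log2 differences of -0.44 ± 0.11 against vector (0.00515), -1.12 ± 0.11 against HIF1α-ko (4.68e-05) and -0.62 ± 0.11 against HIF2α-ko (0.00058). Each of these 4 calls was kept whichever library was left out and under median ratio and quantile scaling.

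CTSB, an abundant cysteine cathepsin that also trims peptides from protein ends, was at 2733, 2470.5 and 2465 TPM in vector, while HIF1α-ko gave 3528, 3683 and 3616, HIF2α-ko gave 2063, 2163 and 2128 and HIF1α/2α-ko gave 2279, 1967 and 2040.2. HIF1α-ko stood above every other library, and both groups without HIF2α stood below every vector library. The rise in HIF1α-ko was 0.50 ± 0.09 (limma adjusted p = 0.00299), the difference of HIF1α/2α-ko from HIF1α-ko -0.79 ± 0.09 (0.000118) and from vector -0.29 ± 0.09 (0.0223, and up to 0.0951 without HIF1α/2α-ko replicate 2 or 3). In HIF2α-ko against vector it was -0.27 ± 0.09 (0.0833). CTSS, a cathepsin that acts in antigen processing, was low at 20.3, 14.5 and 17.9 TPM in vector, while HIF1α-ko gave 23.3, 24.0 and 28.9, HIF2α-ko gave 24.9, 21.8 and 33.5 and HIF1α/2α-ko gave 12.8, 17.4 and 18.2. It fell in HIF1α/2α-ko against both single knockouts, by -0.63 ± 0.20 on the log2 scale against HIF1α-ko (limma adjusted p = 0.0295) and -0.69 ± 0.20 against HIF2α-ko (0.0125). The first call was lost without dual knockout replicate 1 or 2 or HIF1α-ko replicate 2 or 3 (up to 0.11), the second without HIF2α-ko replicate 3 (0.0621).

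TPP1 and CTSL went apart from the other proteases. TPP1, the tripeptidyl peptidase missing in a childhood form of neuronal ceroid lipofuscinosis (chr11:6612763-6619485, minus strand), was at 1030.0, 955 and 1347 TPM in vector, while HIF1α-ko gave 736, 849.8 and 731, HIF2α-ko gave 466, 564 and 536 and HIF1α/2α-ko gave 432, 407 and 444. Every knockout library was below every vector library, and the HIF1α/2α-ko libraries were the lowest. Its log2 differences from vector were -0.51 ± 0.14 in HIF1α-ko, -1.08 ± 0.14 in HIF2α-ko and -1.36 ± 0.14 with both lost (limma adjusted p = 0.0168, 0.00164 and 1.3e-05). The dual knockout was below HIF1α-ko by -0.85 (0.000802), and its difference from HIF2α-ko was -0.28 (0.105, and 0.0207 with the replicate block among the knockout groups). CTSL, a broad endopeptidase, was at 283, 241 and 242 TPM in vector, while HIF1α-ko gave 339.8, 382 and 366, HIF2α-ko gave 196, 240.3 and 240.3 and HIF1α/2α-ko gave 305, 479.6 and 441, with HIF1α/2α-ko replicate 1 below replicates 2 and 3. It was higher than vector in HIF1α-ko (0.50 ± 0.16, limma adjusted p = 0.0374) and in HIF1α/2α-ko (0.65 ± 0.16, 0.00558), and higher in HIF1α/2α-ko than in HIF2α-ko (0.83 ± 0.16, 0.00121). The annotation names 5 CTSL pseudogenes whose reads the counting could have split.

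The other tested proteases were CTSA, CTSD and CTSC. CTSA, the protective protein that keeps β-galactosidase and neuraminidase stable, ranged from 645 to 1386 TPM and rose in HIF1α-ko (0.65 ± 0.20, limma adjusted p = 0.0353), and its exons share bases with NEURL2 and PLTP on the other strand. CTSD, the main aspartic protease of the lysosome, was at 831, 1071 and 1071 TPM in vector, while HIF1α-ko gave 1277, 1387 and 1399.7, HIF2α-ko gave 1162, 1201 and 1158 and HIF1α/2α-ko gave 1189.7, 1097 and 1182, and rose in HIF1α-ko by 0.46 ± 0.11 (limma adjusted p = 0.0113). CTSC, which activates serine proteases by removing dipeptides, ranged from 12.8 to 37.4 TPM, with both ends of that range in vector. With all libraries kept it passed the threshold in no comparison, other than with the replicate block in HIF1α/2α-ko against HIF2α-ko (0.44, limma adjusted p = 0.0226, and 0.0474 in a fit of these groups only). Without vector replicate 1 it was called higher than vector in each knockout group and higher in HIF1α/2α-ko than in HIF2α-ko.

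**Figure D3:**
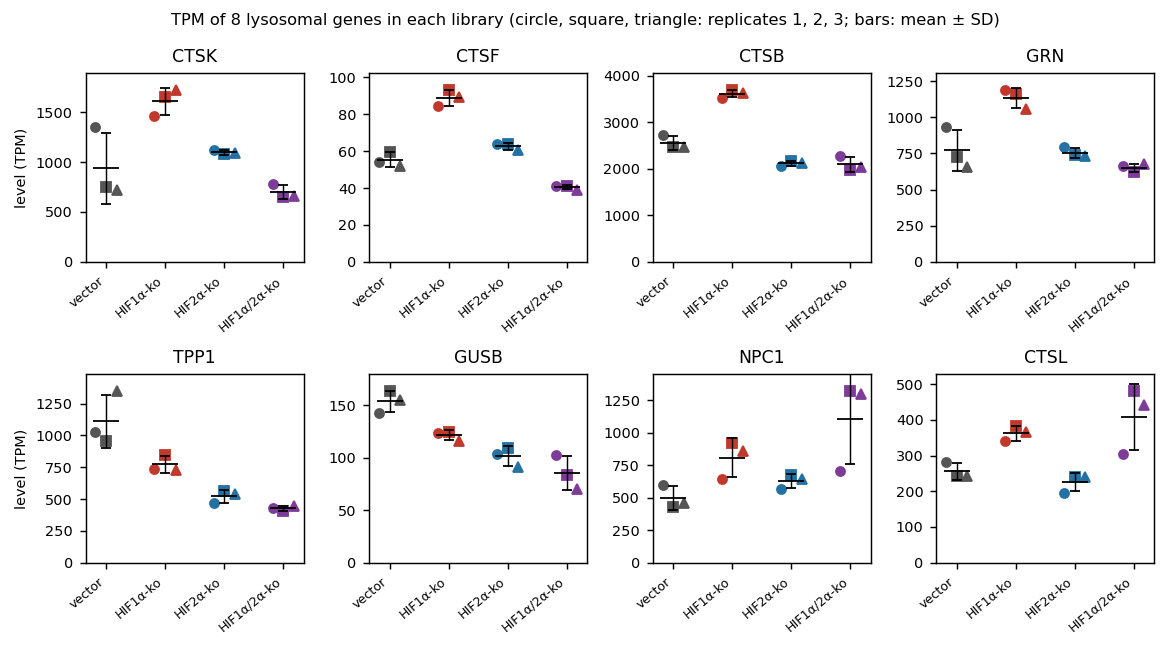
Points give the TPM of 8 lysosomal genes in each library, with the replicate number as the symbol, and bars the mean and SD of the 3 libraries of a group. CTSK, CTSF, CTSB and GRN are highest in HIF1α-ko and low in HIF1α/2α-ko, TPP1 and GUSB are highest in vector, and NPC1 and CTSL are highest in HIF1α/2α-ko replicates 2 and 3.

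Glycosidases, which remove sugars from glycoproteins, glycolipids and glycosaminoglycans, were called in both directions. Of 11 members, 1 rose and 0 fell in HIF1α-ko against vector (limma at an unadjusted p under 0.05 gave 4 and 2), 1 rose and 3 fell in HIF1α/2α-ko against vector, and 3 fell in HIF1α/2α-ko against HIF1α-ko. Of all tested genes, 17.3% were higher and 8.77% lower in HIF1α-ko and 31.8% and 14.8% in HIF1α/2α-ko against vector. In HIF1α/2α-ko against HIF1α-ko, 17.7% were higher and 10.6% lower. Without vector replicate 1, 4 were higher than vector in HIF1α-ko, 4 were higher than vector in HIF1α/2α-ko, and the dual knockout had 5 lower than HIF1α-ko. The 3 that fell against vector became 1 without vector replicate 2 or 3 or HIF1α/2α-ko replicate 2, and the 3 that fell against HIF1α-ko became 1 without HIF1α-ko replicate 2 or HIF1α/2α-ko replicate 2 or 3. GLB1, the β-galactosidase used as a senescence marker, was at 266, 119 and 175 TPM in vector, while HIF1α-ko gave 421, 336 and 336, HIF2α-ko gave 179.5, 265 and 212 and HIF1α/2α-ko gave 265, 300.3 and 251. All 3 HIF1α-ko libraries were above all others, and vector replicate 1 was above the other vector libraries. The rise in HIF1α-ko was 1.03 ± 0.24 (SE; limma adjusted p = 0.00931), and the difference in HIF1α/2α-ko was 0.61 ± 0.24 (0.0514). GLB1 shares exon bases with TMPPE on the same strand.

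GUSB, the β-glucuronidase often used as a reference gene (chr7:65960684-65982314, minus strand), was at 142, 163 and 155 TPM in vector, while HIF1α-ko gave 123.2, 125 and 116, HIF2α-ko gave 104, 109 and 90.7 and HIF1α/2α-ko gave 102, 83.0 and 70.2. The vector libraries were above all knockout libraries. Its log2 differences from vector were -0.34 ± 0.14 in HIF1α-ko, -0.60 ± 0.14 in HIF2α-ko and -0.86 ± 0.14 with both lost (limma adjusted p = 0.0942, 0.0188 and 0.000383). The second call was lost without HIF2α-ko replicate 3 and without vector replicate 2 or 3 (up to 0.0841). The dual knockout was below HIF1α-ko (-0.52, 0.0156, and up to 0.076 without HIF1α-ko replicate 2 or HIF1α/2α-ko replicate 2 or 3). The annotation names 10 GUSB pseudogenes, so its reads may have been split.

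GLA, the α-galactosidase missing in Fabry disease, was at 56.8, 30.5 and 33.2 TPM in vector, while HIF1α-ko gave 60.5, 50.2 and 51.2, HIF2α-ko gave 43.3, 39.8 and 37.0 and HIF1α/2α-ko gave 69.1, 63.6 and 64.2. All HIF1α/2α-ko libraries were above all others, and vector replicate 1 was well above the other vector libraries. The dual knockout exceeded vector by 0.75 ± 0.20 (limma adjusted p = 0.00754) and HIF2α-ko by 0.70 ± 0.20 (0.0112), though median ratio scaling left neither past the threshold. IDUA, which cleaves iduronic acid from heparan and dermatan sulfate, was at 9.23, 13.6 and 13.7 TPM in vector, while HIF1α-ko gave 8.18, 9.74 and 8.75, HIF2α-ko gave 7.47, 8.28 and 7.11 and HIF1α/2α-ko gave 10.3, 10.3 and 10.8. The HIF2α-ko libraries were below every vector library (-0.59 ± 0.16, limma adjusted p = 0.0378), a call lost without any 1 HIF2α-ko library or replicate 2 or 3 of any other group (up to 0.153). IDUA shares exon bases with SLC26A1 on the other strand.

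NEU1, the sialidase that works in a complex with CTSA and GLB1, was at 107, 129 and 125 TPM in vector, while HIF1α-ko gave 139, 119 and 117, HIF2α-ko gave 110.0, 121 and 83.3 and HIF1α/2α-ko gave 107, 76.8 and 78.8. It fell in HIF1α/2α-ko against vector (-0.46 ± 0.17, limma adjusted p = 0.039) and against HIF1α-ko (-0.52 ± 0.17, 0.0363), and HIF1α/2α-ko replicate 1 overlapped with vector. The first call was lost without replicate 2 or 3 of vector, HIF1α-ko or HIF1α/2α-ko (up to 0.14), the second without any 1 HIF1α-ko library or HIF1α/2α-ko replicate 2 or 3 (up to 0.131). GAA, the glycogen-degrading enzyme missing in Pompe disease, stayed within 43.6 to 63.3 TPM and fell in HIF1α/2α-ko against vector (-0.36 ± 0.12, limma adjusted p = 0.0216, and up to 0.075 without vector replicate 2 or 3 or HIF1α/2α-ko replicate 2) and against HIF1α-ko (-0.47 ± 0.12, 0.0105). FUCA1, the fucosidase, was at 14.4, 4.10 and 4.71 TPM in vector, while HIF1α-ko gave 12.9, 13.0 and 13.4, HIF2α-ko gave 11.4, 10.3 and 10.5 and HIF1α/2α-ko gave 6.80, 6.33 and 7.25, so vector replicate 1 was the highest library while the other vector libraries were the lowest of all. Its difference in HIF1α-ko was 0.88 ± 0.31 (limma adjusted p = 0.0567) with vector replicate 1 included, and without that library it was called higher in the 3 knockout groups. HEXA (112 to 149 TPM), MAN2B1 (94.8 to 127), MANBA (40.3 to 65.3) and NAGLU (11.1 to 29.7) passed the threshold in no comparison in the first fit, on the deposited scale with all libraries and no block. Without vector replicate 1, NAGLU was called higher than vector in each knockout group and MANBA lower in HIF1α/2α-ko. HEXA and MANBA were lower in HIF1α/2α-ko than in vector after median ratio scaling (limma adjusted p = 0.0149 and 0.00534).

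Of the 4 sulfatases, IDS was the one past the threshold. IDS, the iduronate sulfatase missing in Hunter syndrome, was at 206, 205 and 259 TPM in vector, while HIF1α-ko gave 139, 155 and 143, HIF2α-ko gave 162, 204 and 196 and HIF1α/2α-ko gave 161, 132 and 139. All HIF1α-ko and HIF1α/2α-ko libraries were below all vector libraries. Its log2 difference was -0.61 ± 0.14 in HIF1α-ko (limma adjusted p = 0.00765) and -0.63 ± 0.14 in HIF1α/2α-ko (0.00242), and the difference in HIF2α-ko was -0.25 ± 0.14 (0.261). The dual knockout was also below HIF2α-ko (-0.38, limma adjusted p = 0.0367, and up to 0.132 without replicate 2 or 3 of either group). ARSA (13.5 to 19.7 TPM), ARSB (3.20 to 10.9) and SGSH (12.1 to 23.5) passed in no comparison on the deposited scale with all libraries kept, and for ARSB both ends of that range were in vector. ARSA was lower in the dual knockout than in HIF2α-ko after quantile normalization (limma adjusted p = 0.0226). Without vector replicate 1 ARSB was called higher than vector in each knockout group. SGSH was called higher in HIF1α/2α-ko than in HIF2α-ko without HIF1α/2α-ko replicate 2. The annotation names 1 IDS pseudogene, and SGSH shares exon bases with CARD14 and SLC26A11 on the other strand.

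Among the 7 enzymes and helpers of lipid breakdown, 3 rose and 0 fell in HIF1α-ko against vector (limma at an unadjusted p under 0.05 gave 6 and 0), 2 rose and 1 fell in HIF1α/2α-ko, and 4 fell in HIF1α/2α-ko against HIF1α-ko. Of all tested genes, 17.3% were higher and 8.77% lower in HIF1α-ko and 31.8% and 14.8% in HIF1α/2α-ko against vector. In HIF1α/2α-ko against HIF1α-ko, 17.7% were higher and 10.6% lower. Without vector replicate 1 the 3 became 5, and without HIF1α-ko replicate 2 or 3 they became 1. The 2 that rose in HIF1α/2α-ko became 1 without HIF1α/2α-ko replicate 3, and the 4 that fell against HIF1α-ko became 2 without HIF1α-ko replicate 3 or HIF1α/2α-ko replicate 2. PSAP was at 4943, 5296 and 5274 TPM in vector, while HIF1α-ko gave 6308, 6466 and 6456, HIF2α-ko gave 5521, 5469.6 and 5195 and HIF1α/2α-ko gave 6664, 6799 and 6699. The HIF1α-ko and HIF1α/2α-ko libraries were above all others, by a small margin on the log2 scale: 0.31 ± 0.08 in HIF1α-ko (limma adjusted p = 0.017) and 0.38 ± 0.08 in HIF1α/2α-ko (0.00255). After median ratio scaling neither passed.

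SMPD1, the acid sphingomyelinase that makes ceramide (chr11:6390431-6394998, plus strand), was at 73.7, 32.1 and 28.5 TPM in vector, while HIF1α-ko gave 71.0, 71.9 and 87.8, HIF2α-ko gave 52.4, 60.6 and 66.5 and HIF1α/2α-ko gave 49.8, 36.3 and 37.7. Vector replicate 1 reached the level of HIF1α-ko while vector replicates 2 and 3 were the lowest of all 12 libraries. The log2 difference was 0.89 ± 0.28 in HIF1α-ko against vector (limma adjusted p = 0.0363) and -0.89 ± 0.28 in HIF1α/2α-ko against HIF1α-ko (0.0328). The latter was lost without any 1 HIF1α-ko library or HIF1α/2α-ko replicate 2 or 3 (up to 0.107). GRN, the progranulin precursor whose complete loss causes a neuronal ceroid lipofuscinosis (chr17:44345086-44353102, plus strand), was at 931, 728 and 655 TPM in vector, while HIF1α-ko gave 1187, 1164 and 1057, HIF2α-ko gave 794, 740.1 and 732 and HIF1α/2α-ko gave 660.3, 620.3 and 675. HIF1α-ko was above all other libraries, by 0.57 ± 0.13 over vector (limma adjusted p = 0.00684) and with HIF1α/2α-ko at -0.80 ± 0.13 relative to it (0.000711).

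ASAH1, the acid ceramidase, was at 53.7, 64.0 and 59.9 TPM in vector, while HIF1α-ko gave 64.1, 91.3 and 92.2, HIF2α-ko gave 59.1, 67.4 and 80.3 and HIF1α/2α-ko gave 82.2, 86.99 and 99.6. The dual knockout exceeded vector by 0.59 ± 0.17 (limma adjusted p = 0.0115, and 0.0517 without HIF1α/2α-ko replicate 3), which became 0.36 (0.0671) after median ratio scaling and 0.39 (0.0558) after quantile normalization, and in HIF1α-ko it gave 0.46 ± 0.17 (0.0596), with replicate 1 near vector. PPT1, a thioesterase that removes fatty acids from proteins, was at 56.9, 54.2 and 61.8 TPM in vector, while HIF1α-ko gave 64.6, 70.4 and 67.2, HIF2α-ko gave 41.8, 43.4 and 43.8 and HIF1α/2α-ko gave 59.3, 58.5 and 54.7. The HIF2α-ko libraries were below all others: -0.41 ± 0.11 against vector (limma adjusted p = 0.0296, and up to 0.118 without vector replicate 3 or any 1 HIF2α-ko library), while HIF1α/2α-ko was above HIF2α-ko by 0.41 ± 0.11 (0.0079). PPT1 shares exon bases with CAP1 on the other strand, and after median ratio scaling neither difference passed. NPC2, which binds free cholesterol in the lumen, ranged from 872 to 1723 TPM and fell in HIF1α/2α-ko against vector (-0.43 ± 0.13, limma adjusted p = 0.0141, and up to 0.0688 without vector replicate 3 or HIF1α/2α-ko replicate 2) and against HIF1α-ko (-0.79 ± 0.13, 0.000803). LIPA, the acid lipase of cholesteryl esters, ranged from 47.0 to 108 TPM and fell in HIF1α/2α-ko against HIF1α-ko (-0.88 ± 0.24, limma adjusted p = 0.0154, and up to 0.0629 without HIF1α-ko replicate 3 or HIF1α/2α-ko replicate 2). NPC2 and LIPA share exon bases with ISCA2 and IFIT2 on the other strand.

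On the deposited scale no membrane protein was called lower against vector. Of 6 members, 3 rose in HIF1α-ko against vector and 2 in HIF1α/2α-ko against vector, and limma called 0 lower in either (0 also at an unadjusted p under 0.05). Among all tested genes 17.3% were higher and 8.77% lower in HIF1α-ko, and 31.8% and 14.8% in HIF1α/2α-ko. The membrane share higher in HIF1α/2α-ko (33.3%) was thus near that of all genes. The 3 became 1 without replicate 2 or 3 of vector, HIF1α-ko or HIF2α-ko. CD63, a tetraspanin of late endosomes and exosomes, was at 1935, 1899 and 1748 TPM in vector, while HIF1α-ko gave 2633, 2732 and 2945, HIF2α-ko gave 2293, 2264 and 2419 and HIF1α/2α-ko gave 2964, 2783 and 2399.8. All 9 knockout libraries were above all vector libraries, by mean differences in the 3 groups, in the same order, of 0.57 ± 0.10 (limma adjusted p = 0.00256), 0.32 ± 0.10 (0.0644) and 0.54 ± 0.10 (0.00106) on the log2 scale. After median ratio scaling none of these passed. NPC1, the transporter that moves cholesterol out of the lysosome, was at 599, 425 and 461 TPM in vector, while HIF1α-ko gave 641, 923 and 861, HIF2α-ko gave 571, 675 and 642 and HIF1α/2α-ko gave 705, 1318 and 1298. HIF1α/2α-ko replicates 2 and 3 were above all other libraries, while HIF1α/2α-ko replicate 1 was below HIF1α-ko replicates 2 and 3. Its log2 difference from vector was 0.70 ± 0.23 in HIF1α-ko (limma adjusted p = 0.0401) and 1.12 ± 0.23 in HIF1α/2α-ko (0.00171), and from HIF2α-ko 0.76 ± 0.23 in HIF1α/2α-ko (0.0164, and up to 0.0747 without HIF2α-ko replicate 1 or HIF1α/2α-ko replicate 2 or 3). NPC1 shares exon bases with RMC1 on the other strand.

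LAMP1, the most abundant glycoprotein of the lysosomal coat, stayed within 141 to 175 TPM and passed in no comparison with all libraries kept. Without vector replicate 1 it was called higher in HIF1α-ko than in vector. LAMP2, the receptor of chaperone-mediated autophagy, ranged from 124 to 288 TPM and was lower with both factors lost than in HIF1α-ko (-0.56 ± 0.18, limma adjusted p = 0.0402), a call lost without any 1 HIF1α/2α-ko library or HIF1α-ko replicate 2 or 3 (up to 0.143). MCOLN1, the calcium channel of the lysosomal membrane, ranged from 8.78 to 19.4 TPM and rose in HIF1α-ko (0.51 ± 0.17, limma adjusted p = 0.0423), and it shares exon bases with PNPLA6 on the same strand. CLN3, a membrane protein mutated in juvenile neuronal ceroid lipofuscinosis, ranged from 24.8 to 47.2 TPM and passed in no comparison on the deposited scale with all libraries kept. In HIF1α/2α-ko against HIF2α-ko it was lower after median ratio scaling (limma adjusted p = 0.0143) and was also called lower without HIF2α-ko replicate 1. CLN3 shares exon bases with APOBR on the other strand.

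**Figure D4:**
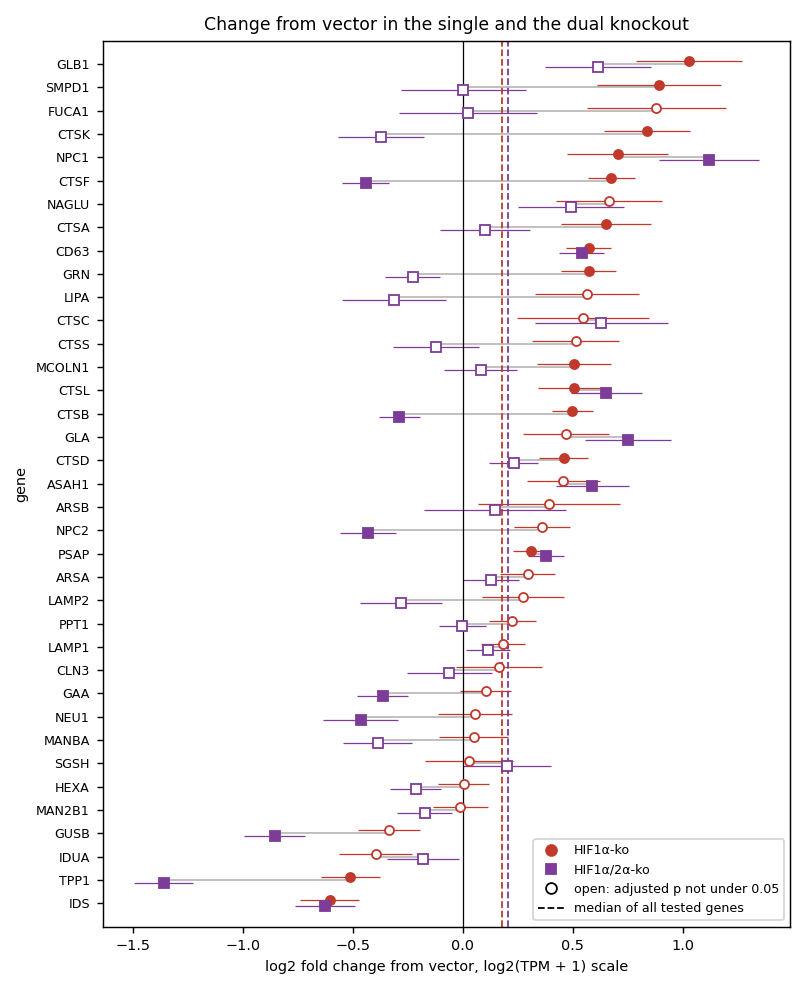
Points give the log2 difference from vector on the log2(TPM + 1) scale in HIF1α-ko (circles) and HIF1α/2α-ko (squares) for the 37 tested lysosomal genes, lines 1 SE, filled points an adjusted p under 0.05 and dashed lines the median of all tested genes (0.18 and 0.21). CTSK, CTSF, GRN and CTSB lie right of 0 in HIF1α-ko and left of 0 in HIF1α/2α-ko, while NPC1, GLA, CTSL and PSAP lie right of 0 in both and TPP1 and IDS left of 0 in both.

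Whether losing HIF1α had the same effect with and without HIF2α was asked by the interaction, the difference of HIF1α/2α-ko from HIF2α-ko less the difference of HIF1α-ko from vector. HIF1A message did not differ past the threshold between HIF1α/2α-ko and HIF2α-ko, so the message does not show the loss of HIF1α there. The interaction was negative and past the threshold for 9 members (SMPD1, CTSB, CTSS, CTSK, FUCA1, NPC2, CTSD, CTSF and GRN) and positive for 1 (IDUA). Of all tested genes, 7.35% were negative and 13.2% positive, and the members' median was -0.31 against 0.12, with 7 members above the latter. Of the 10 members called, 5 are proteases, 3 are of the lipid group and 2 are glycosidases. The interaction was -1.5 ± 0.28 for CTSK (limma adjusted p = 0.00382), -1.30 ± 0.15 for CTSF (0.000519), -1.20 ± 0.28 for CTSS (0.0111), -0.78 ± 0.18 for GRN (0.01) and -0.52 ± 0.13 for CTSB (0.0169). For these 5 the call was kept whichever library was left out, and for all but CTSB under both other scalings.

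Where HIF2α was intact, CTSK, CTSF, CTSB and GRN were higher without HIF1α. Where HIF2α was knocked out, CTSK and CTSF were lower without HIF1α, and the log2 difference was -0.02 for CTSB (0.89) and -0.21 for GRN (limma adjusted p = 0.183, 0.0224 with the replicate block among the knockout groups, and 0.023 after median ratio scaling). The other 5 calls were less stable. SMPD1 lost its call without vector replicate 2 or 3, HIF1α-ko replicate 3, or replicate 2 or 3 of the other knockout groups (up to 0.0649), and IDUA without vector replicate 2 or 3, replicate 1 or 3 of either single knockout, or HIF1α/2α-ko replicate 2 or 3 (up to 0.0725). NPC2 and FUCA1 lost it without vector replicate 2 or 3, any 1 HIF1α-ko library or replicate 2 or 3 of the other knockout groups, FUCA1 also without HIF2α-ko replicate 1 (up to 0.122 and 0.0887), and CTSD lost it without any 1 knockout library or vector replicate 3 (up to 0.108). The 9 became 14 without vector replicate 1, and 5 without vector replicate 3, HIF1α-ko replicate 3, or replicate 2 or 3 of HIF2α-ko or HIF1α/2α-ko. Over all genes the negative share was 12.9% in the first case and 4.62% to 5.38% in the others. Median ratio scaling gave 6 negative and 1 positive, against 8.81% and 11.7% of all genes, and quantile normalization 10 and 0, against 11.2% and 11.5%.

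Lysosomal hydrolases outside the 39 were read from a list of 27 genes, of which 25 were tested. In HIF1α-ko against vector 6 were higher (AGA, DNASE2 and PLD3 among them) and limma called 0 lower (0 also at an unadjusted p under 0.05). In HIF1α/2α-ko against HIF1α-ko, 15 were lower and 0 higher (18 and 0 at an unadjusted p under 0.05), and against vector 8 were lower and 0 higher (12 and 1). In HIF2α-ko against vector limma called 0 in either direction (2 higher and 3 lower at an unadjusted p under 0.05). The list's median was 0.38 in HIF1α-ko against vector and -0.55 in HIF1α/2α-ko against HIF1α-ko, where the medians of all genes were 0.18 and 0.07. Of all tested genes, 17.3% were higher in the first of these comparisons and 10.6% lower in the second, and 14.8% were lower in HIF1α/2α-ko against vector. The 6 became 12 without vector replicate 1 and 3 without vector replicate 3 or HIF1α-ko replicate 2 or 3, the 15 became 9 without HIF1α-ko replicate 3, and 5 were higher in HIF1α/2α-ko against vector without vector replicate 1.

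GM2A, an activator protein of ganglioside breakdown, was at 179, 166 and 181 TPM in vector, while HIF1α-ko gave 177, 165 and 167, HIF2α-ko gave 138, 149.8 and 144 and HIF1α/2α-ko gave 117, 88.9 and 92.0, lowest in HIF1α/2α-ko, with log2 differences of -0.83 ± 0.12 from vector and -0.78 ± 0.12 from HIF1α-ko (limma adjusted p = 0.000155 and 0.00063). PLD3, a nucleic acid-degrading enzyme of the lysosome, was at 480.0, 598 and 551 TPM in vector, while HIF1α-ko gave 665, 683 and 667, HIF2α-ko gave 529, 546 and 524 and HIF1α/2α-ko gave 402, 395 and 396, above vector in HIF1α-ko (0.31 ± 0.10, limma adjusted p = 0.0366, and up to 0.11 without vector replicate 3, any 1 HIF1α-ko library or replicate 2 or 3 of the other knockout groups, and 0.11 with adjusted p = 0.604 after median ratio scaling) and below it in HIF1α/2α-ko (-0.44 ± 0.10, 0.00304).

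V-ATPase genes and other membrane proteins were called in both directions in the dual knockout. Of 16 V-ATPase genes, 3 were higher and 1 lower in HIF1α-ko against vector, 0 and 2 in HIF2α-ko (limma, 0 and 4 at an unadjusted p under 0.05), 3 and 2 in HIF1α/2α-ko, and 3 and 2 in HIF1α/2α-ko against HIF1α-ko. ATP6V0D1, a subunit of the membrane sector, was at 55.0, 58.6 and 53.3 TPM in vector, while HIF1α-ko gave 84.4, 82.7 and 96.3, HIF2α-ko gave 46.1, 49.8 and 57.5 and HIF1α/2α-ko gave 181, 179.8 and 175, with log2 differences of 0.65 ± 0.12 in HIF1α-ko and 1.67 ± 0.12 with both lost (limma adjusted p = 0.00271 and 1.5e-06). ATP6V0B, of the proton-carrying ring, was at 21.5, 28.3 and 24.6 TPM in vector, while HIF1α-ko gave 49.5, 61.5 and 70.6, HIF2α-ko gave 34.6, 29.1 and 29.1 and HIF1α/2α-ko gave 86.7, 102 and 95.0, with 1.25 ± 0.16 and 1.89 ± 0.16 (0.000373 and 4.02e-06). Of 22 other lysosomal membrane proteins, 5 were higher and 2 lower in HIF1α-ko against vector, 2 and 1 in HIF2α-ko, and 6 and 3 with both lost. CLCN7, the chloride-proton exchanger, was at 8.59, 10.6 and 11.026 TPM in vector, while HIF1α-ko gave 18.3, 21.2 and 20.02, HIF2α-ko gave 15.3, 13.4 and 13.0 and HIF1α/2α-ko gave 36.1, 54.8 and 53.4, and the log2 difference of HIF1α/2α-ko from vector was 2.13 ± 0.17 (limma adjusted p = 3.74e-06). CD68, a LAMP-family glycoprotein best known from macrophages, was at 1633, 1284 and 1494 TPM in vector, while HIF1α-ko gave 1061, 952 and 816, HIF2α-ko gave 1220.3, 1009.9 and 1019 and HIF1α/2α-ko gave 817, 587 and 637 and fell in HIF1α-ko (-0.64 ± 0.15, limma adjusted p = 0.00995, and 0.0512 without HIF1α-ko replicate 3) and HIF1α/2α-ko (-1.12 ± 0.15, 0.0001). The shares of all tested genes higher and lower were 17.3% and 8.77% in HIF1α-ko against vector, 5.07% and 5.89% in HIF2α-ko, 31.8% and 14.8% in the dual knockout, and 17.7% and 10.6% in the dual knockout against HIF1α-ko. Whether these lists differed from the hydrolases was not tested. Without HIF1α/2α-ko replicate 1 the 6 membrane genes became 11. Without vector replicate 1, 5 V-ATPase genes were higher in HIF1α-ko, while HIF2α-ko and the dual knockout each had 4 lower. The 2 V-ATPase genes lower in HIF1α/2α-ko became 1 without vector replicate 2 or 3 or HIF1α/2α-ko replicate 3.

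The remaining lists are read against the same shares of all genes. Of 13 sorting genes, 1 was higher and 0 lower in HIF1α-ko against vector (limma, 4 and 0 at an unadjusted p under 0.05), and 2 were higher and 1 lower in HIF1α/2α-ko. The first count ranged from 0 to 3 and the second from 1 to 3 when 1 library was left out. IGF2R, the large mannose 6-phosphate receptor, was at 89.2, 72.3 and 73.3 TPM in vector, while HIF1α-ko gave 95.6, 126 and 116, HIF2α-ko gave 89.7, 119 and 106 and HIF1α/2α-ko gave 102, 163 and 165, higher in HIF1α/2α-ko than in vector by 0.84 ± 0.19 (limma adjusted p = 0.00347). GGA2, an adaptor of that route, was at 23.9, 29.4 and 31.6 TPM in vector, while HIF1α-ko gave 23.9, 26.9 and 24.9, HIF2α-ko gave 31.6, 36.7 and 36.3 and HIF1α/2α-ko gave 16.2, 21.0 and 20.4, with -0.54 ± 0.15 (0.0104). Of 19 tested genes of the MiT/TFE factors and nutrient sensing, 3 were higher and 2 lower in HIF1α-ko, 0 and 2 in HIF2α-ko (limma, 3 and 3 at an unadjusted p under 0.05) and 4 and 5 in HIF1α/2α-ko. Without vector replicate 1, 8 of them were lower in HIF1α-ko and 4 in HIF2α-ko. The 3 higher became 1 without vector replicate 3 or replicate 2 or 3 of either single knockout, and 5 without HIF1α/2α-ko replicate 1. The 2 lower became 0 without HIF1α-ko replicate 3 or replicate 2 or 3 of vector, and those in HIF2α-ko became 0 without replicate 3 of vector or HIF2α-ko. MTOR was at 2.44, 1.77 and 1.04 TPM in vector, while HIF1α-ko gave 2.37, 4.43 and 3.20, HIF2α-ko gave 1.96, 1.501 and 1.99 and HIF1α/2α-ko gave 6.14, 10.9 and 10.998 and rose in HIF1α/2α-ko (1.90 ± 0.26, limma adjusted p = 9.79e-05). RPTOR, which gives mTORC1 its substrates, was at 28.2, 37.2 and 35.8 TPM in vector, while HIF1α-ko gave 26.3, 27.5 and 26.9, HIF2α-ko gave 27.9, 31.1 and 33.7 and HIF1α/2α-ko gave 12.3, 16.7 and 16.3 and fell there (-1.11 ± 0.16, 0.000122). TFEB, named after its values were seen because it is a factor of the motif shown above, was low at 2.85, 4.07 and 3.77 TPM in vector, while HIF1α-ko gave 6.56, 6.43 and 6.55, HIF2α-ko gave 3.34, 4.36 and 3.68 and HIF1α/2α-ko gave 3.40, 3.01 and 3.14, with log2 differences of 0.73 ± 0.15 for HIF1α-ko and -0.12 ± 0.15 for the dual knockout against vector (limma adjusted p = 0.0058 and 0.563). Its call was not followed by itself through other scalings or without single libraries. TFE3 and MITF, the other factors named for that motif, are not given by library. Of 3 tested cystatins, which inhibit cysteine cathepsins, CSTA was at 23.2, 21.2 and 23.3 TPM in vector, while HIF1α-ko gave 27.9, 30.3 and 32.4, HIF2α-ko gave 14.04, 14.3 and 16.3 and HIF1α/2α-ko gave 14.8, 16.4 and 18.3. It was higher in HIF1α-ko (0.40 ± 0.13, limma adjusted p = 0.0416) and lower in HIF2α-ko (-0.57, 0.0181) and HIF1α/2α-ko (-0.44, 0.0171), calls lost without single libraries at adjusted p up to 0.148, 0.0748 and 0.0501, vector replicate 3 in each case among them. After median ratio scaling the first was 0.21 (adjusted p = 0.202), and after quantile normalization its adjusted p was 0.059. CSTB was at 1469, 1099 and 1094 TPM in vector, while HIF1α-ko gave 1039.7, 836 and 864, HIF2α-ko gave 1032, 1015 and 1022 and HIF1α/2α-ko gave 1106, 730.0 and 758 and fell in HIF1α/2α-ko (-0.51 ± 0.17, limma adjusted p = 0.0241, and up to 0.104 without vector replicate 1 or HIF1α/2α-ko replicate 2 or 3).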

How the data were processed

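Messenger RNA was measured by RNA-seq (Trizol, VAHTS mRNA-seq V2 kit) in 12 libraries of hypoxic U-87 MG cells, 3 for each of 4 groups. The deposited table held TPM values made by the authors, who per the labels' processing notes used FastQC 0.11.2, Trimmomatic 0.36, HISAT2 2.0, bedtools 2.26.0 and GRCh38. The annotation, the strand setting and the step that gave TPM were not given in the sources used here. Columns summed to between 999955 and 999982, so sequencing depth is unknown and no counting interval was given. The 9 knockout columns matched the sample titles by code and number, and the 3 vector columns, named with a letter that all titles share, were matched as the ones that remained.

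Gene IDs were matched to symbols for 20148 of 20263 genes. Values were tested as log2(TPM + 1), so fold changes of low genes are understated, over the 11731 genes that reached a TPM of 1 in 3 or more libraries. limma 3.58.1 (R 4.3.3) with a mean-variance trend was fitted to all 4 groups, with 6 contrasts, Benjamini-Hochberg adjustment over all tested genes within a contrast and a threshold of 0.05. The fit was tested on simulated data. Positions were read from GENCODE 29 and promoters from RefSeq. Python 3.11.15 (numpy 2.4.6, pandas 2.3.3) was used for tables and matplotlib 3.10.9 for plots. The members and lists were chosen with earlier results of these data known. Values by library were given for the 4 largest rises and 4 largest falls past the threshold against vector, the highest member of each role, the members past the threshold in the interaction (up to 8 by p) and from each other list the 2 genes of smallest p when the dual knockout was set against vector. CTSD was outside that rule and was given because its interaction passed.

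Alternatives were a pseudocount of 0.1, no filter, a mean TPM of at least 5, quantile normalization, median ratio scaling, fitting the compared groups alone, no trend, a replicate block and leaving out each library in turn. Leaving out all libraries numbered 1 was added after seeing the data. Replicate numbers are in the labels. Deviations from the group means of same-numbered libraries correlated at 0.463 to 0.508, 0.227 to 0.250 and 0.196 to 0.222 (replicates 1, 2 and 3) between knockout groups, and at -0.0265 to 0.163 between vector and knockout groups, so the numbers were taken to pair the 3 knockout groups and not vector. That pairing comes from the values alone.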

Additional observations from a re-analysis of the deposited data

Results flagged for a closer look

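For 10 of the 37 tested lysosomal genes, the interaction term of limma passed the threshold. Among all tested genes 20.6% passed it, 7.35% as negative and 13.2% as positive. The term sets HIF1α/2α-ko against HIF2α-ko beside HIF1α-ko against vector. HIF1A message did not differ past the threshold between HIF1α/2α-ko and HIF2α-ko, so the message does not show the loss of HIF1α there. The interaction (log2) was -1.30 for CTSF, -1.5 for CTSK, -0.78 for GRN, -1.20 for CTSS and -0.52 for CTSB, and these 5 kept an adjusted p under 0.05 whichever library was left out. It was -1.43 for SMPD1, -1.47 for FUCA1, -0.48 for CTSD, -0.54 for NPC2 and 0.81 for IDUA, and these 5 lost it without at least 1 library. In SMPD1 and FUCA1 vector replicate 1 was far above vector replicates 2 and 3, and without it their interactions were -1.85 and -1.98 (adjusted p = 0.000248 and 5.46e-05). Vector replicate 1 was below the other vector libraries in IDUA and CTSD. Dixon's test of single libraries was not applied, since each group had 3.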

How the results depend on the processing

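Members higher in HIF1α-ko against vector (13) were 8 with no filter, 8 in a fit of the compared groups only, 3 after median ratio scaling and 25 without all libraries numbered 1, while the 2 lower were 1 in the compared groups only and 4 without the libraries numbered 1. The shares of all genes moved as well. Those higher went from 17.3% to 11.1%, 12.1%, 10.9% and 39.2% in the same order. Those lower went from 8.77% to 6.19% and 15.9%. For HIF2α-ko against vector, 0 higher became 1 at a mean TPM of at least 5, 1 after median ratio scaling, 2 after quantile normalization and 13 without the libraries numbered 1, and 4 lower became 1 after median ratio scaling and 2 in the compared groups only. Over all genes, 5.07% higher became 6.93%, 6.42%, 6.71% and 20.5%, and 5.89% lower became 4.94% and 2.13%. For HIF1α/2α-ko against vector, 6 higher became 2 after median ratio scaling and 12 without the libraries numbered 1, and 8 lower became 13 after median ratio scaling and 5 in the compared groups only. Over all genes, 31.8% higher became 24.3% and 45.3%, and 14.8% lower became 22.2% and 11.4%. Against HIF1α-ko, 0 higher became 1 after quantile normalization and 3 without the libraries numbered 1, where 17.7% of all genes became 15.5% and 28.8%. Against HIF2α-ko, 5 higher became 2 after median ratio scaling, 3 after quantile normalization and 9 without the libraries numbered 1, and 4 lower became 14, 12 and 11 under these, and 8 in the compared groups only. Over all genes, 33.5% higher became 23.4%, 23.3% and 43.2%, and 12.9% lower became 21.0%, 22.3%, 17.6% and 13.4%. Of the interaction, 1 higher became 0 after quantile normalization and 2 without the libraries numbered 1, and 9 lower became 5 with no filter and 17 without the libraries numbered 1. Over all genes, 13.2% higher became 11.5% and 24.7%, and 7.35% lower became 5.27% and 18.3%. The cause of these shifts was not tested, beyond the all-gene medians that median ratio scaling moved from 0.18, 0.21 and 0.23 to 0.01, 0.01 and 0.00 in HIF1α-ko and HIF1α/2α-ko against vector and HIF1α/2α-ko against HIF2α-ko.

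With the replicate block over the 3 knockout groups, HIF1α/2α-ko against HIF1α-ko gave 2 higher and 20 lower and against HIF2α-ko 9 higher and 10 lower. With the block over all 4 groups, which the vector numbers do not pair, HIF2α-ko against vector gave 2 higher, against 7.62% of all genes, and the other counts stayed within 1.5 times.

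Leaving out 1 library gave 7 to 21 members higher and 1 to 3 lower in HIF1α-ko against vector, 0 to 8 and 1 to 4 in HIF2α-ko against vector, 5 to 12 and 4 to 9 in HIF1α/2α-ko against vector, 0 to 1 and 7 to 17 in HIF1α/2α-ko against HIF1α-ko, 4 to 7 and 2 to 7 against HIF2α-ko, and 0 to 1 and 5 to 14 in the interaction. Of 65 calls of single members, 35 were kept whichever library was left out, 40 under median ratio scaling, 56 under quantile normalization and 24 under all of these. Over the 51 genes compared (the 37 members, the targeted genes and 12 of the other lists), 0 values past the threshold changed sign under the alternatives run. In HIF1α-ko against vector, CTSA, CTSL, NPC1, PSAP and SMPD1 were not called with no filter, and CTSA, CTSD, MCOLN1, PSAP, SMPD1, TPP1, CSTA and PLD3 not in the compared groups only. In HIF1α/2α-ko against vector the latter setting lost CTSB, GAA, NEU1, CSTA, CSTB and GGA2, and in HIF2α-ko against vector IDUA, PPT1 and CSTA. The unknown depth leaves the counting error of low genes such as ARSB, FUCA1 and IDUA unmeasured.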
